A study of Mus musculus with 8 samples.

Results

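The Hox clusters are 4 stretches of the mouse genome that hold the Hox genes side by side. Their members were taken as the protein-coding genes of the mm9 annotation (GENCODE release M1) whose symbol is Hox, a cluster letter from a to d and a number, which gave 39 genes among 22367 protein-coding genes. HoxA lies on chromosome 6 with 11 members over 106 kb, HoxB on chromosome 11 with 10 members over 174 kb (96055630 to 96229570), HoxC on chromosome 15 with 9 members over 116 kb (102751534 to 102867274), and HoxD on chromosome 2 with 9 members over 96.8 kb (74506367 to 74603200), 492 kb in all. All coordinates are mm9. 5hmC (5-hydroxymethylcytosine, an oxidised form of methylated cytosine) was mapped by GLIB-Seq, in which a glucose put on 5hmC is opened by periodate and coupled to biotin, so that the marked fragments can be pulled down and sequenced. There is 1 library of each of 6 conditions: ESCs of the E14 line (embryonic stem cells), primary MEFs (embryonic fibroblasts of C57BL/6 mice, embryonic day 11 in the sample labels and a later day in the methods of the study), brain and liver of C57BL/6 mice 8 weeks old, and E14 cells transfected with a short hairpin against GFP (shGFP, the control hairpin) or against Suz12 (shSuz12), the latter kept under puromycin before use. For the latter the methods name a pair of hairpin vectors. The RNA-Seq libraries of the hairpin cells were not analysed here, so how far Suz12 fell was not measured from these data. The paper reports from western blots that both hairpins lowered Suz12 protein and H3K27me3 but not Tet1 or Sin3a. It also reports lower global 5hmC from dot blots. A peak list holds no expression by which the labelled cell types could be checked against marker genes.

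Hox genes encode transcription factors with a homeodomain, the DNA-binding fold after which they are named. Within a cluster the Hox genes face the same way, and low-numbered (3′) genes act towards the head and early while high-numbered (5′) genes act towards the tail, in the limbs and late. In ESCs the clusters are textbook targets of PRC2, the Polycomb complex to which Suz12 belongs and which puts H3K27me3 on silent developmental genes, and Tet enzymes make 5hmC from 5-methylcytosine.

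Before the values, 2 stretches show the DNA in question. In each cluster the ESC and shGFP peaks of the highest score that no shSuz12 peak met were looked up, and of these windows, taken as the middle 300 bp, 2 with at most 30 bp of untranslated sequence are printed. Both are the plus strand of mm9, 5′ to 3′, with each CG dinucleotide, the main site of cytosine methylation, in capitals. The first is from an intergenic shGFP peak upstream of Hoxc10 (chr15:102793605-102793904) and holds 6 CG. The other is from a shGFP peak on Hoxd11 (chr2:74521918-74522217), holds 10 CG, and spans the whole last coding exon of the gene, 233 bp, where the homeobox lies.
Hoxc10 upstream: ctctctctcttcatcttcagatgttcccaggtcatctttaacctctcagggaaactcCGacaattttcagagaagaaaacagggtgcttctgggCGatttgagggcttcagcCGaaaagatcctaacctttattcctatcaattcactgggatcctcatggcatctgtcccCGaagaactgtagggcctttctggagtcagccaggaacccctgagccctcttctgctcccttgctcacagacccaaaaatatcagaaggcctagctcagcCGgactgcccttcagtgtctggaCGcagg
Hoxd11 last coding exon: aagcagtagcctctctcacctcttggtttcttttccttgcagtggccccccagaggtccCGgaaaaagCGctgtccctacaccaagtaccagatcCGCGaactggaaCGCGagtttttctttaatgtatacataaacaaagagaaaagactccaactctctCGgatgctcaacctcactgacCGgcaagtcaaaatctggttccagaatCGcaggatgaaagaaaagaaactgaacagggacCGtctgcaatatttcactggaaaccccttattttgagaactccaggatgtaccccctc

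The 4 clusters held many 5hmC peaks in the ESC libraries and almost none in the other cell types. They held 86 peaks in ESCs (exact Poisson 95% interval 68.8 to 106), 122 in shGFP (101 to 146) and 115 in shSuz12 (94.9 to 138), but 12 in MEFs (6.2 to 21), 0 in brain (up to 3.69) and 1 in liver (0.0253 to 5.57). These intervals cover counting error only, and with 1 library per condition no difference between libraries was tested. Peaks covered 19.4, 29.4 and 14.5% of the clusters in ESCs, shGFP and shSuz12, against 6.75, 4.56 and 3.15% of the whole genome, so the clusters stood at 2.88, 6.45 and 4.59 times the genome. In MEFs they covered 1.72% of the clusters and 7.83% of the genome, a ratio of 0.22. Brain peaks covered 7.34% of the genome and no base of the clusters, and liver peaks 6.39% of the genome and 0.185% of the clusters. The lists differ in depth and threshold: they hold between 130408 (liver) and 217025 peaks (MEFs), and the lowest score (10 times the negative log10 of the p-value given by the peak caller MACS) is 80 in ESCs and liver, 50 in shGFP, 30.3 in shSuz12 and 30 in MEFs and brain. The brain and MEF lists thus reach down to a lower score than that of ESCs, and the liver list stops at the same score. Depth and control of the lists are not known here, so the lowest scores do not rank how sensitive the lists are.

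**Figure D1:**
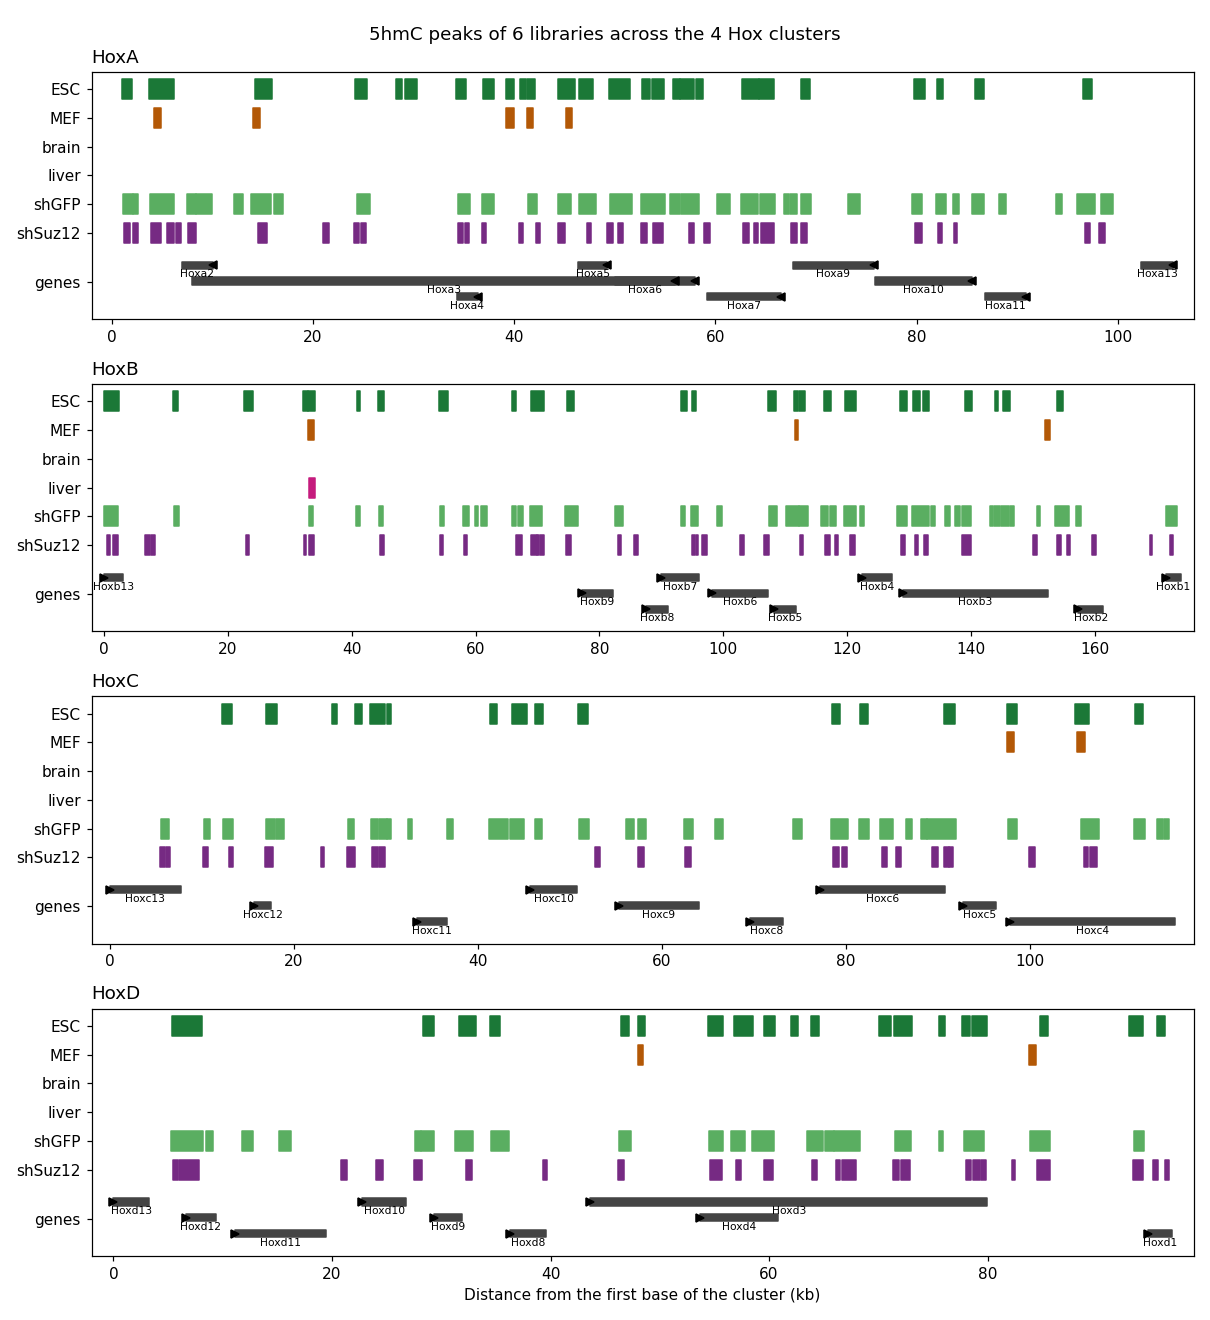
Position of 5hmC peaks in the 6 libraries (coloured boxes, 1 row per library) along each Hox cluster, in kb from the first base of the cluster, with 38 of the 39 Hox genes as grey bars and an arrowhead at each start site. The rows of ESCs, shGFP and shSuz12 are filled along all 4 clusters, the MEF row holds 12 peaks, the liver row 1 and the brain row 0.

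HoxA was the most covered cluster in each of the 3 ESC libraries. Peaks covered 28.2% of HoxA, 16% of HoxB, 14.3% of HoxC and 22.1% of HoxD in ESCs. In shGFP the shares were 39.1, 25.3, 27.7 and 28.4%, and in shSuz12 18.6, 13.1, 10.9 and 16.7%, so that HoxD was second in all 3 libraries while the order of HoxB and HoxC changed in shGFP. HoxA also held 5 of the 12 MEF peaks (3.2% of its length), against 3 in HoxB and 2 in each of HoxC and HoxD. HoxA and HoxD are the CpG-richer clusters, with 29.8 and 28 CpG per kb, against 20.9 in HoxB, 21.5 in HoxC and 8.34 over 100 kb windows of the genome, and the part of CpG content in the order was not tested. Within the clusters, DNA under ESC peaks had 27.1 CpG per kb and DNA outside them 23.7; under shGFP and shSuz12 peaks it had 29.5 and 31.5, and outside them 22.2 and 23.1.

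**Figure D2:**
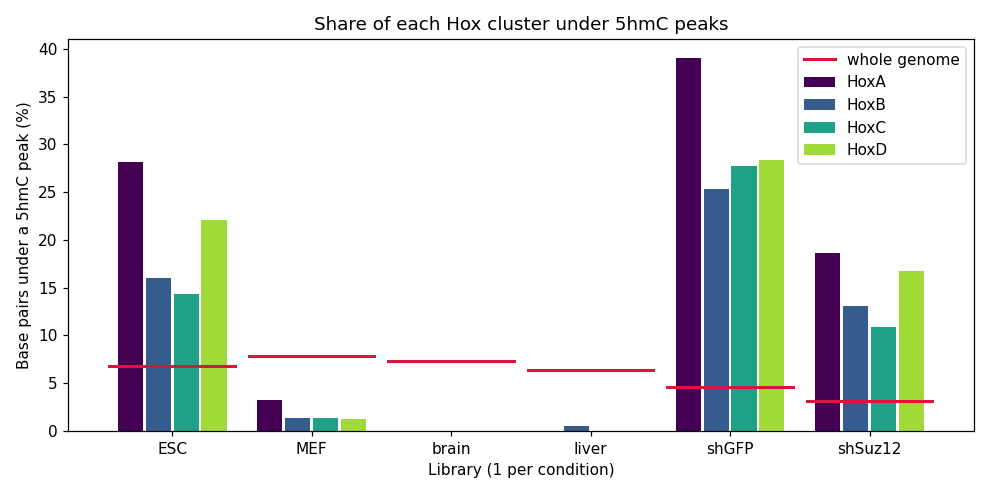
Percentage of base pairs under 5hmC peaks (vertical axis) in HoxA, HoxB, HoxC and HoxD (bars) in each library, with the whole genome as a red line and no error bars, since there is 1 library per condition. All 12 bars of ESCs, shGFP and shSuz12 lie above the genome line, and all bars of MEFs, brain and liver lie below it.

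Cover was uneven along HoxA and HoxD and more even along HoxB and HoxC in ESCs. When each cluster was cut into 3 equal parts, the middle of HoxA, from Hoxa4 to Hoxa9, was covered to 49.2% in ESCs, 56% in shGFP and 28.6% in shSuz12, whereas its part with the highest numbers (Hoxa9 to Hoxa13) was covered to 9.75, 26.1 and 7.28%. HoxD showed less at its high-numbered part than at its low-numbered part, with 13.9 against 25.6% in ESCs, 26.3 against 31% in shGFP and 13.1 against 23.9% in shSuz12. HoxC was nearly even in ESCs, with 14.8, 11.5 and 16.7% from the high to the low numbers, and in shGFP the shares were higher along the same direction (20.9, 25.8 and 36.5%). In shSuz12 HoxC had 13.5, 4.46 and 14.8%, without that order. HoxB was even in ESCs, with 16.1, 14.9 and 16.8% from the high to the low numbers, and had 9.96, 28.8 and 37.1% in shGFP and 9.34, 14.7 and 15.1% in shSuz12. In HoxB the long stretch between Hoxb13 and Hoxb9, which holds few genes, was itself covered in ESCs: leaving it and Hoxb13 out moved the share of HoxB from 16 to 14.9% in ESCs and from 25.3 to 31.4% in shGFP.

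The Hox promoters, taken as 1 kb on each side of the start site (2000 bp), carried peaks more often than promoters at large in the ESC libraries and less often in the others. In ESCs 19 of 39 had a peak (48.7%, exact Clopper-Pearson 95% interval 32.4 to 65.2%), against 31.9% of all protein-coding promoters. In shGFP 28 of 39 did (71.8%, 55.1 to 85%), against 27.1%, and in shSuz12 13 of 39 (33.3%, 19.1 to 50.2%), against 21.4%, which lies inside the interval. These intervals take the promoters as independent, although neighbours can share a peak, as those of Hoxa3 and Hoxa6 do in ESCs. When a peak was counted by its midpoint, the ESC share was 23.1% against 21.7% of all promoters, so the excess in ESCs was lost, while shGFP had 46.2% against 20.5%. With windows of 2 kb on each side, the shSuz12 share was 64.1% against 33.9% of all promoters. Within 1 kb, only Hoxc4 had a peak in MEFs (2.56%, 0.0649 to 13.5%, against 30.1%). None had one in brain (0 to 9.03%, against 20.0%) or liver (0 to 9.03%, against 29.4%). Of the 19 Hox promoters with an ESC peak, 19 had none in brain and 19 none in liver, against 59.3 and 53.9% of all promoters with an ESC peak, and 18 had none in MEFs, against 47.6%. Seen together, 27 of the 39 promoters (69.2%, 52.4 to 83%) had a peak in at least 1 ESC library and in none of MEFs, brain and liver, a pattern of 11.4% of all promoters, and 1 of 39 had a peak in MEFs, brain or liver, against 48% of all promoters. By CpG class, 6 of 13 Hox promoters of high, 10 of 19 of intermediate and 3 of 7 of low CpG content had a peak in ESCs, against 27.1, 41.1 and 30.4% of all promoters of these classes. In shGFP it was 9, 13 and 6, against 22.3, 37.3 and 25%.

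Over whole genes the picture differed. In ESCs 22 of 39 Hox genes held a peak between their start and end (56.4%, 39.6 to 72.2%), against 67.8% of all protein-coding genes, which lies inside the interval. In shGFP 29 did (74.4%, against 63.4%) and in shSuz12 26 (66.7%, against 63%), so these shares lay near those of all genes. MEFs had a peak in 5 Hox genes (12.8%, 4.3 to 27.4%, against 61%), while brain and liver had none, against 60.7 and 57.9% of all genes. The Hoxa3 and Hoxd3 records span other Hox genes, so their counts hold peaks that also lie in their neighbours: Hoxa3 (49981 bp) held 16 peaks in ESCs, 4 in MEFs, 15 in shGFP and 17 in shSuz12, and Hoxd3 (36346 bp) 12, 1, 10 and 12. At the start site itself, 6 Hox genes were under a peak in ESCs (15.4%, against 11.8% of all), 9 in shGFP (23.1%, against 11.2%) and 3 in shSuz12 (7.69%, against 5.83%). It was 1 in MEFs (Hoxc4, against 6.87% of all) and 0 in brain and liver, against 4.46 and 5.38%.

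**Figure D3:**
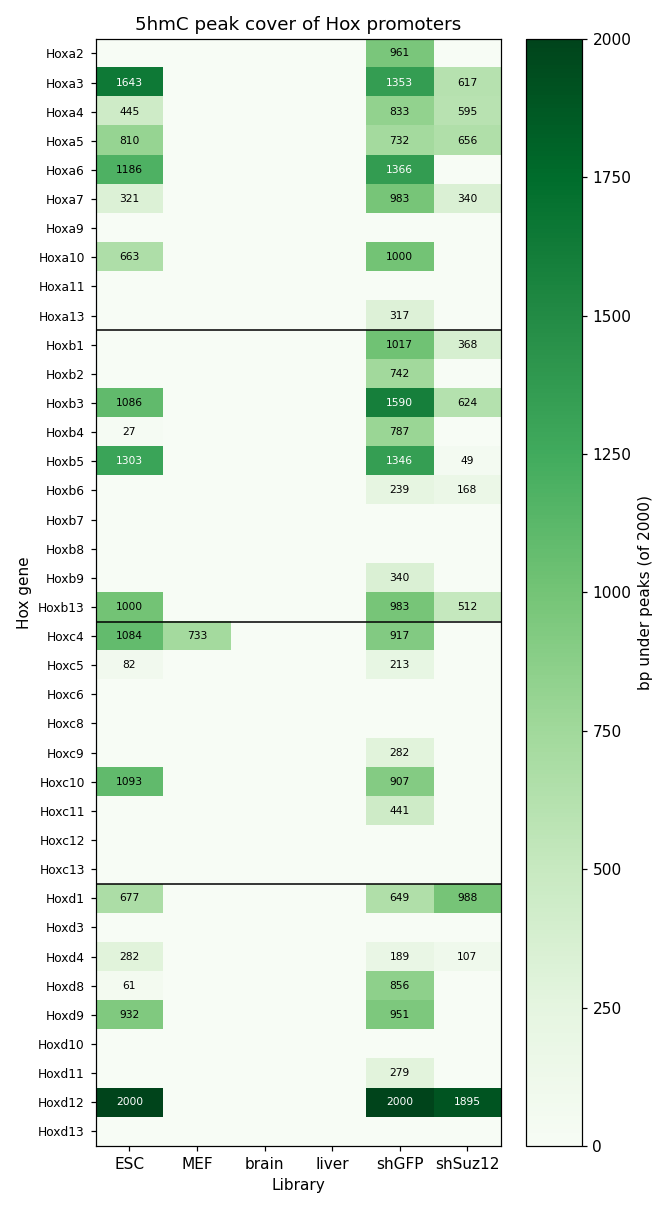
Base pairs under a 5hmC peak within 1 kb of the start site (colour and number, out of 2000 bp) for 38 Hox genes, in rows by cluster and number, in the 6 libraries; empty cells are 0. The columns of brain and liver are empty, that of MEFs has 1 entry (Hoxc4, 733 bp), and Hoxd12 is filled in ESCs, shGFP and shSuz12.

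Hoxd12, a posterior gene of limb patterning (chromosome 2, 74512986 to 74515763, plus strand), had the most covered promoter in all 3 ESC libraries. Its 2000 bp were covered whole in ESCs and shGFP and over 1895 bp in shSuz12, and over 0 bp in MEFs, brain and liver. The peak on it had the highest score of any peak in the clusters in ESCs (1744, width 2818 bp), in shGFP (1135, width 2927 bp) and in shSuz12 (232, width 1851 bp). It began at -1294 bp from the start site in ESCs, at -1376 bp in shGFP and at -620 bp in shSuz12, where a separate, lower peak (score 43.4) lay upstream of it at -1163 to -726 bp, so that shSuz12 cover on that side was split between a pair of peaks. The next gene of the cluster, Hoxd13, which shapes digits and the urogenital tract (chromosome 2, 74506367 to 74509656), had no peak in its promoter or its body in any library.

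Genes of anterior position, groups 1 to 4, had promoter peaks most often. Of these 12 genes 8 had one in ESCs, 11 in shGFP and 7 in shSuz12. Of the 11 genes of groups 5 to 8 it was 6, 7 and 4, and of the 16 genes of groups 9 to 13 it was 5, 10 and 2. The counts are small and the genes share their libraries, so the order is a description. The groups follow gene number, and the Hoxa3 and Hoxd3 records start on the high-numbered side of Hoxa6 and Hoxd4. The posterior genes thus had fewest in shSuz12, where Hoxb13 and Hoxd12 were the remaining pair.

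Among the anterior genes, Hoxa3, which acts in the throat glands and neck (chromosome 6, 52113358 to 52163338, minus strand), had 1643, 1353 and 617 bp of its promoter covered in ESCs, shGFP and shSuz12. Hoxb3, its HoxB counterpart (chromosome 11, 96184640 to 96207999), had 1086, 1590 and 624 bp. Both thus had cover in all 3 libraries. Hoxb1, a hindbrain gene at the low-numbered end of HoxB (chromosome 11, 96227066 to 96229570), had 0, 1017 and 368 bp in ESCs, shGFP and shSuz12, so that a peak was called in both hairpin libraries and not in untransfected ESCs. Hoxd1 (chromosome 2, 74601037 to 74603200), at the low-numbered end of HoxD, had 677, 649 and 988 bp in ESCs, shGFP and shSuz12, the only promoter of the 39 with more cover in shSuz12 than in shGFP. Hoxc4, at the same end of HoxC (chromosome 15, 102849367 to 102867274), had 1084 bp covered in ESCs, 733 in MEFs, 917 in shGFP and 0 in shSuz12. Its MEF peak had a score of 35.2, low in the MEF list (percentile 14.9), and lay inside the ESC peak, which had a score of 328.

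In the middle of the clusters, Hoxb5 (chromosome 11, 96163909 to 96167434) and Hoxa6 (chromosome 6, 52155430 to 52161355), which pattern the neck and thorax, had 1303 and 1186 bp of promoter covered in ESCs and 1346 and 1366 bp in shGFP. In shSuz12 they had 49 and 0 bp. Hoxa5, the neighbour of Hoxa6 (chromosome 6, 52151753 to 52154586), which acts in lung development, was covered in all 3 libraries, with 810, 732 and 656 bp in ESCs, shGFP and shSuz12. At the posterior end, Hoxa10, known from the uterus and leukaemia (chromosome 6, 52181196 to 52190853), had 663, 1000 and 0 bp in ESCs, shGFP and shSuz12. Hoxd9, a limb and spinal cord gene (chromosome 2, 74535737 to 74538265), had 932, 951 and 0 bp. Hoxb13, a gene of the tail and prostate (chromosome 11, 96055630 to 96058761), had 1000, 983 and 512 bp. Hoxa13, a digit gene at the end of HoxA (chromosome 6, 52207693 to 52210874), had 317 bp in shGFP alone.

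A set of 11 promoters had no peak in any of the 6 libraries (28.2%, 15 to 44.9%, against 40.6% of all promoters). They were Hoxa9, Hoxa11, Hoxb7, Hoxb8, Hoxc6, Hoxc8, Hoxc12, Hoxc13, Hoxd3, Hoxd10 and Hoxd13, from all 4 clusters and from groups 3 to 13. The Hoxd3 window is at the start of its long gene record, between Hoxd8 and Hoxd4. Another 11 promoters had a peak in each of the 3 ESC libraries (28.2%, against 13.6%), Hoxa3, Hoxa4, Hoxa5, Hoxa7, Hoxb3, Hoxb5, Hoxb13, Hoxd1, Hoxd4 and Hoxd12 among them. No promoter had a peak in ESCs that was missing in shGFP (0 of 19, up to 17.6%, against 32% of all promoters with an ESC peak), while 9 of 28 with a shGFP peak had none in ESCs (32.1%, 15.9 to 52.4%, against 20.0%). Of these 9, Hoxa2, Hoxa13, Hoxb2, Hoxb9, Hoxc9, Hoxc11 and Hoxd11 had their peak in shGFP alone, and Hoxb1 and Hoxb6 in both hairpin libraries. The peak lists of the untransfected and the control hairpin cells thus differed at Hox promoters, in the direction of more cover in shGFP. The ESC list stops at a score of 80 and the shGFP list at 50. With a minimum score of 80 in both, 19 Hox promoters (48.7%) had a peak in ESCs and 23 (59%) in shGFP, against 31.9 and 19% of all promoters.

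The comparison of shSuz12 with shGFP bears on whether 5hmC at these genes needs PRC2. Among the 28 Hox promoters covered in shGFP, 15 carried no shSuz12 peak (53.6%, 33.9 to 72.5%), against 44.1% of the 6067 promoters with a shGFP peak, a share inside the interval. Among the 19 covered in both ESCs and shGFP, 8 lacked one in shSuz12 (42.1%, 20.3 to 66.5%), against 37.3% of all such promoters. No Hox promoter had a peak in shSuz12 and none in shGFP (0 of 13, up to 24.7%, against 29.2%). Cover in bp was lower in shSuz12 at 27 of the 28 (96.4%, 81.7 to 99.9%), against 89.3% of all. Summed over the 39 promoters it was 14983, 23125 and 7441 bp in ESCs, shGFP and shSuz12, a ratio of shSuz12 to shGFP of 0.322, against 0.54 over all promoters. Against untransfected ESCs the ratio of shSuz12 was 0.497 at Hox promoters and 0.457 over all promoters, so Hox promoters stood below all promoters in the ratio to shGFP and not in the ratio to ESCs.

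By cluster, HoxC promoters went from 5 with a peak in shGFP to 0 in shSuz12, HoxA promoters from 9 to 5, HoxB from 8 to 5 and HoxD from 6 to 3. The 5 of HoxC were Hoxc4, Hoxc5, Hoxc9, Hoxc10 and Hoxc11. HoxC still held 22 shSuz12 peaks, against 31 in shGFP, all 22 outside these promoter windows. Of all promoters with a shGFP peak, 44.1% had none in shSuz12, and the counts per cluster are small. The largest differences among promoters also covered in ESCs were at Hoxa6 (1366 to 0 bp), Hoxb5 (1346 to 49 bp), Hoxa10 (1000 to 0 bp), Hoxb3 (1590 to 624 bp) and Hoxd9 (951 to 0 bp). At the other end, Hoxd12 went from 2000 to 1895 bp and Hoxa5 from 732 to 656 bp.

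Across whole clusters the peaks were nearly as many in shSuz12 as in shGFP but narrower. The clusters held 0.943 times as many peaks in shSuz12, and they measured 592 bp at the median, against 994 bp for shGFP, where the genome-wide medians were 564 and 776 bp. Covered bp in the clusters stood at 0.491 times shGFP, against 0.689 over the genome, which is 0.712 relative to the genome; by cluster this relative value was 0.69 in HoxA, 0.749 in HoxB, 0.571 in HoxC and 0.852 in HoxD. Untransfected ESCs did not sit with the control hairpin. Cover in shGFP was 1.52 times that in ESCs over the clusters, while over the genome it was 0.676 times, and cover in shSuz12 was 0.745 times that in ESCs, against 0.466 times over the genome. Relative to the genome, the clusters in shSuz12 (4.59) therefore lay between ESCs (2.88) and shGFP (6.45), and a difference due to Suz12 and one between single libraries cannot be told apart here.

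Most peak positions in the clusters were shared between the ESC libraries, and whether the share was above or below that of the genome depended on the list it was counted from. Of the 86 ESC peaks in the clusters, 74 met a shGFP peak by at least 1 bp (86%, 76.9 to 92.6%, against 56.4% of all ESC peaks) and 57 met a shSuz12 peak (66.3%, 55.3 to 76.1%, against 47.1%). In the other direction, 73 of the 122 shGFP peaks met an ESC peak (59.8%, 50.6 to 68.6%, against 76.3% of all shGFP peaks), and 70 of the 115 shSuz12 peaks did (60.9%, 51.3 to 69.8%, against 67.3%, inside the interval). Between the hairpin libraries, 91 of the 115 shSuz12 peaks met a shGFP peak (79.1%, 70.6 to 86.1%, against 53.6%). Of the 122 shGFP peaks 70 met a shSuz12 peak (57.4%, 48.1 to 66.3%, against 50.5%, inside the interval), and of those 70 peaks 55.2% of the bp lay under shSuz12 peaks. Merged over all libraries the peaks made 148 regions, of which 44 were in the 3 ESC libraries and no other, 31 in shGFP alone, 19 in shSuz12 alone and 6 in ESCs alone.

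Around the start sites the cover was lower in shSuz12 than in shGFP at every distance looked at. Cut into bins of 500 bp out to 5 kb on each side of the 39 Hox start sites, shSuz12 was below shGFP in 20 of 20 bins, at 0.236 to 0.769 times its cover, and over all protein-coding genes in 20 of 20 at 0.511 to 0.695 times. From -500 to -1 bp, 18.8% of bp were covered in ESCs, 26.2% in shGFP and 7.43% in shSuz12, and from -1000 to -501 bp 26.2, 35.9 and 8.47%. Low shares were also found far from the start, with 21, 34.4 and 9.33% from -3000 to -2501 bp and 25.9, 29.6 and 7.42% from 4500 to 4999 bp. The bins with the most shSuz12 cover, from -1500 to -1001 bp and from 1500 to 1999 bp, had 27.2, 34.3 and 26.4% and 27.7, 40.4 and 28%. Against ESCs shSuz12 was lower in 18 of the 20 bins. The low cover was thus not particular to the start sites. Promoters taken as 2 kb on each side gave 33 with a peak in shGFP, of which 10 had none in shSuz12 (30.3%, against 34.2% of all promoters).

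**Figure D4:**
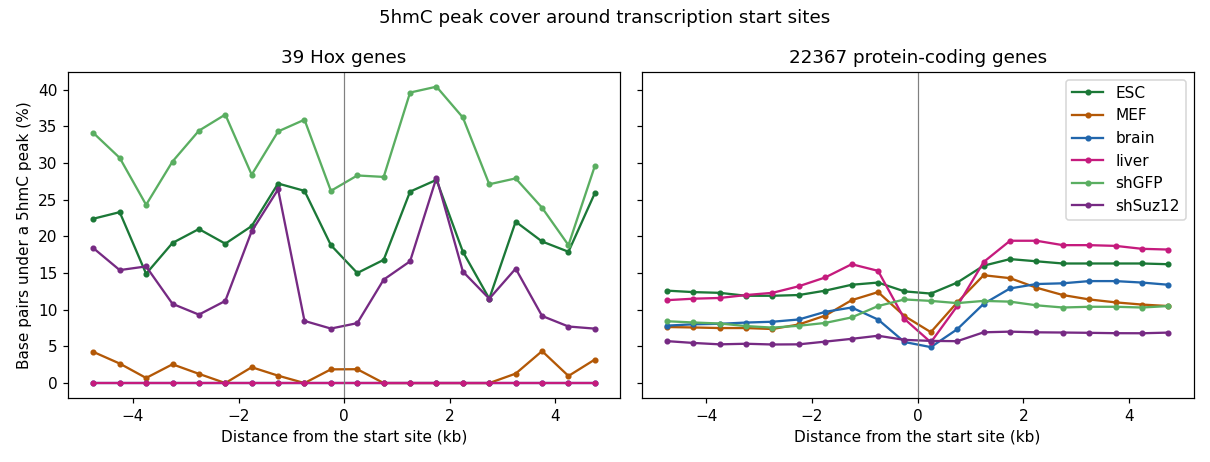
Percentage of base pairs under 5hmC peaks in bins of 500 bp (vertical axis) by distance from the start site (kb, negative upstream) for the 39 Hox genes (left) and all 22367 protein-coding genes (right), 1 line per library. In the left panel the shSuz12 line lies below the shGFP line in 20 of 20 bins and varies between 7.42% and 28%, and the lines of brain and liver lie at 0.

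The last coding exon of a Hox gene, which holds the homeobox, was covered more than the first. Taken from the transcript with the longest coding sequence of each of the 39 genes, the last coding exons were covered to 33.1% in ESCs, 56.1% in shGFP and 40.9% in shSuz12, and the first coding exons to 10.9, 24.3 and 12.5%. Of the 39 last coding exons, 13 met a peak in ESCs (against 38.1% of all last coding exons), 22 in shGFP (against 26.1%) and 17 in shSuz12 (against 20.9%). Over 18355 protein-coding genes with at least 2 coding exons the last coding exon was covered more than the first too (40.7 against 28.3% in ESCs, 28.6 against 22.2% in shGFP and 20.1 against 14.4% in shSuz12). The homeobox exons were thus above the last exons of all genes in the hairpin libraries and below them in ESCs. Those of Hoxa3, Hoxb7, Hoxb13, Hoxc12, Hoxd4 and Hoxd12 were among those that lay wholly under a peak in all 3 ESC libraries. That of Hoxd11, printed above, was covered in shGFP over its 233 bp and in no other library. In MEFs 2 were met by a peak (against 19% of all), 210 bp of Hoxa3 and 138 bp of Hoxb3.

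MEFs had few peaks, and most were at places marked in ESCs. Of the 12 MEF peaks in the clusters, 10 met an ESC peak (83.3%, 51.6 to 97.9%, against 38.7% of all MEF peaks) and 9 met a shGFP peak (75%, 42.8 to 94.5%, against 29.5%). Their scores ran from 32.5 to 109, with a median of 40.1, below the median of 58.2 of the MEF list. The MEF peaks were low-scoring ones as a rule, and 1 of the 12 reached the lowest score of the ESC list. The single liver peak (chromosome 11, 96088790 to 96089697, score 112) lay in the stretch between Hoxb13 and Hoxb9, where ESC, MEF, shGFP and shSuz12 peaks met it, the 1 region of the clusters with peaks in 5 libraries.

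**Figure D5:**
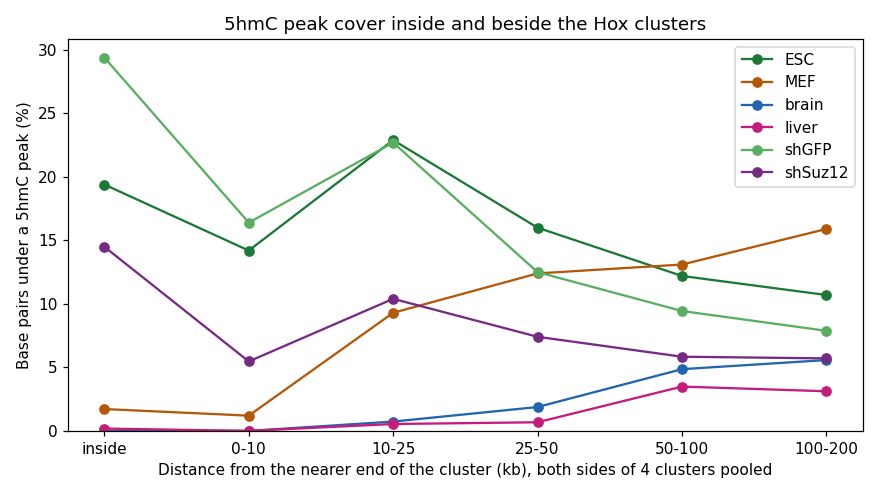
Percentage of base pairs under 5hmC peaks (vertical axis) inside the 4 Hox clusters and in 5 ranges of distance from the nearer end (kb, both sides pooled), 1 line per library. Brain and liver lie at 0 up to 10 kb from the clusters and rise to 5.58 and 3.12% at 100 to 200 kb, and MEFs go from 1.72% inside to 15.9% at that distance.

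The absence of peaks in brain and liver reached past the ends of the clusters. Within 10 kb of them, brain and liver peaks covered 0% and MEF peaks 1.2%, against 14.2% in ESCs. From 10 to 25 kb it was 0.733% in brain, 0.542% in liver, 9.3% in MEFs and 22.9% in ESCs, and from 100 to 200 kb 5.58, 3.12, 15.9 and 10.7%. MEFs thus passed their genome level of 7.83% within 25 kb, while brain and liver stayed below theirs out to 200 kb. Counted from peak to peak, the stretch without a brain peak was 161 kb at HoxA, 336 kb at HoxB, 250.1 kb at HoxC and 191 kb at HoxD. For liver it was 217 kb at HoxA, 201 kb at HoxB on the side of its single peak that holds Hoxb9 to Hoxb1, and 368 kb at HoxC, and at HoxD 857 kb, most of it on the high-numbered side, where the nearest liver peak was 685 kb away. Stretches of 100 kb without a peak are common: 35.1% of 25630 windows of 100 kb had no brain peak and 52% no liver peak. The combination was rare: 4 of these windows (0.0156%) had no brain peak and were covered in ESCs and in shGFP at least as much as the least covered Hox cluster in that library, and all 4 met a Hox cluster, 1 on each of chromosomes 2, 6, 11 and 15. The levels asked for were taken from the clusters themselves, so this describes how few other windows reached them (0) and is no test. Among the 38 windows with at least the GC and CpG content of the least rich cluster, of which 2 met a Hox cluster, 10.5% had no brain peak and 10.5% no liver peak. The 4 windows without a brain peak include the 2 that met a Hox cluster.

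The genes beside and among the Hox genes were read in the same way. Evx1 and Evx2, homeobox genes next to HoxA and HoxD, had peaks within the gene in all 3 ESC libraries (2320 and 1369 bp in ESCs, 2599 and 1108 bp in shGFP, 765 and 586 bp in shSuz12) and 0 bp in MEFs, brain and liver. The cluster microRNAs differed: Mir10b, within the span of Hoxd4, was under an ESC peak over its 68 bp, over 33 bp in shGFP and 0 bp in shSuz12, and Mir196a-1, upstream of Hoxb9, over its 102 bp in ESCs and shSuz12 and 0 bp in shGFP. Mir10a, Mir196b, Mir196a-2 and Mir615 were at 0 bp in every library. Hoxb3os, an RNA on the other strand that reaches from the end of Hoxb3 into Hoxb2, was covered over 928 bp in ESCs, 891 in MEFs, 2962 in shGFP and 1685 in shSuz12.

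Other developmental regulators shared part of the pattern, though the homeobox list had no excess in ESCs. Of all protein-coding promoters, 31.9% had a peak in ESCs, 27.1% in shGFP and 21.4% in shSuz12. In MEFs, brain and liver the shares of all promoters were 30.1, 20.0 and 29.4%. The homeobox list holds 88 genes outside the clusters, taken by the symbols of homeobox and Pax families, Evx1, Evx2 and the caudal genes included. Its members were not each checked for a homeobox. Of these 88, 26 (29.5%) had a promoter peak in ESCs, 53.4% in shGFP and 28.4% in shSuz12. In MEFs, brain and liver it was 3.41, 7.95 and 3.41%. Of 38 Sox, Gata and Tbx genes, transcription factors of many lineages, 18 had one in ESCs, 19 in shGFP, 14 in shSuz12, 3 in MEFs, 6 in brain and 7 in liver. A promoter peak in the ESC libraries alone was found in 44 of the 88 genes of the homeobox list and 17 of the 38 Sox, Gata and Tbx genes (44.7%). It was found in 69.2% of the Hox genes and 11.4% of all promoters. A promoter peak in MEFs, brain or liver was found in 12.5, 26.3 and 2.56% of these 3 lists, against 48% of all promoters. The share with no shSuz12 peak, of those with a shGFP peak, was 55.3% of 47 genes of the homeobox list and 53.6% of Hox genes. It was 42.1% of 19 Sox, Gata and Tbx genes, near the 44.1% of all promoters with a shGFP peak. The 9 Hox cofactors (Pbx, Meis and Pknox genes, partners of Hox proteins on DNA) had promoter peaks in 2 of 9 in ESCs, MEFs, brain, liver and shGFP alike and in 1 of 9 in shSuz12. Of the 3 caudal genes, which act upstream of Hox genes, 2 had a promoter peak in ESCs, 1 in brain, 2 in shGFP and 1 in shSuz12, and of 10 PRC2 subunit genes 1 did in ESCs, 4 in MEFs, 2 in brain, 4 in liver, 3 in shGFP and 1 in shSuz12.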

How the data were processed

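The data are the GLIB-Seq peak lists of 6 libraries, and 2 RNA-Seq samples were not analysed here. Reads were aligned by the authors to mm9 (Bowtie 0.12.7, unique hits), duplicates were collapsed, and MACS 1.4.1 gave a peak list per library. The deposited lists give each peak's place and score, the latter taken as 10 times the negative log10 of the MACS p-value. The threshold and the control of the peak calls are not given in the sources used here. Without read counts the sequencing depth is unknown, and list lengths depend on it and on the threshold.

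Peaks were set against GENCODE release M1 on NCBIM37, the same assembly as mm9 (chromosome 1 of 197195432 bp), and 1 to 3 mitochondrial peaks per library were left out. A peak was counted where it met a window by at least 1 bp, and covered bp were summed. The 2 records of Hoxa3 were joined, so that 40 records gave 39 members. Of these, 1 is counted in all totals and, like 1 sequence window, not reported here. The start site is that of the gene record. CpG classes were computed from 500 bp windows. Coding exons are those of the transcript with the longest coding sequence.

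Named genes are the first and last of each cluster, the 3 promoters with most cover in each library, the 5 that lost most bp between shGFP and shSuz12 among those covered in ESCs, those that rose, and those with peaks in none of the libraries; Hoxb1, Hoxa13 and Hoxd13 enter as cluster ends. Other genes named only in lists, and the homeobox exons and microRNAs, were chosen after their values were seen. Of 8 sequence windows chosen by rule, 5 are not printed, as over 30 bp of each were untranslated sequence. Members and lists were chosen with earlier results of these data known. Shares have exact Clopper-Pearson and peak numbers exact Poisson 95% intervals, for counting error alone. They treat members and peaks as independent, which neighbours in a cluster need not be. No test between conditions was made, as each has a single library. The counting of covered bp in clusters and of peaks in promoters was tested on simulated peaks, and the other steps were not. Python 3.11.15 was used with numpy 2.4.6, scipy 1.17.1 and matplotlib 3.10.9.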

Additional observations from a re-analysis of the deposited data

How the results depend on the processing

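No paired analysis was possible because there was 1 library for each condition, and for the same reason no replicate could be left out. Of 233 alternative values, 191 stayed within 1.5 times the reported count or inside the counting interval. Among these are brain and liver values of 0 that stayed at 0, which a shortened peak list could not have changed. With the 50% of each list of the highest scores, the clusters stood at 0.0552 times the genome in MEFs, 0 in liver and 8.58 in shGFP. The ratio of shSuz12 over shGFP moved from 0.712 to 0.577 relative to the genome. MEFs had a peak in 0 promoters (against 17.3% of all promoters) and 1 gene. Under a common minimum score of 80 the clusters stood at 0.0316 in MEFs and 8.06 in shGFP, and shSuz12 over shGFP at 0.587. There shSuz12 had peaks in 5 promoters (12.8%, against 5.07% of all promoters) and 10 genes. MEFs had peaks in 0 promoters (against 12% of all) and 1 gene. By cluster that score took the relative ratio from 0.69 to 0.241 in HoxA, 0.749 to 0.581 in HoxB and 0.571 to 0.346 in HoxC. In HoxD it turned from 0.852 to 1.38. Equal numbers of peaks gave MEFs 0.112, 0 promoters (against 20.2% of all promoters) and 1 gene.

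Promoters of 500 bp on each side left 12 with a peak in ESCs (30.8%, against 22.4% of all promoters) and 8 in shSuz12 (20.5%, against 13.8%). Those of 2 kb gave 2 in MEFs (5.13%, against 42.1%) and 25 in shSuz12 (64.1%, against 33.9%). Peaks counted by their midpoint left 9 promoters in ESCs (23.1%, against 21.7% of all promoters, so without the excess), 18 in shGFP (46.2%, against 20.5%) and 3 genes in MEFs. The start of the transcript with the longest coding sequence left 0 promoters in MEFs (against 30.1% of all promoters). Without the stretch from Hoxb13 to Hoxb9, chosen after seeing the data, liver had 0 cover. Promoters with a peak in shGFP and none in shSuz12 ranged from 10 to 19 over the alternatives, 30.3 to 82.6% of those with a shGFP peak, against 34.2 to 78.7% of all promoters under the same settings. The cause of these moves was not tested.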
